A study of Mus musculus with 12 samples.

Results

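The genes described here code for G protein-coupled receptors, read in neural stem cells that were sorted by flow cytometry from the subventricular zone, a stem cell niche of the adult brain. The members were every gene of the platform annotation whose single symbol starts with Adgr or Gprc5 or consists of Gpr followed by a digit, together with 10 receptors listed by name: Ednra, Ednrb, S1pr1, S1pr2, S1pr3, Ntsr2, Lpar1, P2ry1, Adora1 and Adora2b. This gave 94 genes of 18193, read by 154 probe sets: 22 adhesion receptors, 4 Gprc5 receptors, 61 Gpr genes and 7 of the 10 listed receptors. Ednra, Adora1 and Adora2b were not analysed here. All 94 symbols matched a RefSeq gene, and 1 of them, Gpr137b-ps, is annotated as a pseudogene.

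The cells came from adult male C57B6J mice and fell into 3 groups by state: quiescent, quiescent with irradiation 48 h earlier (called irradiated here), and activated. Of the 12 samples described, 10 had values, namely quiescent replicates 1, 2 and 4, irradiated replicates 1 to 4 and activated replicates 1 to 3. The labels name no transgene or other treatment. How large the dose was, which markers defined each sort, how old the mice were and how many were pooled is not stated in the sources used. Since separate animals per replicate are not documented either, p-values reflect only sample-to-sample spread, part of which may be technical. RNA was amplified before it was hybridised to Affymetrix MOE 430 2.0 arrays, which read each transcript with 1 or more probe sets. The values are intensities on a linear scale. Since probe sets differ in brightness, levels are not compared between genes here. In sorted bulk samples, fewer cells of a type and less RNA per cell cannot be told apart.

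G protein-coupled receptors cross the membrane with a bundle of helices and pass the binding of a ligand to a G protein inside the cell. Gs raises and Gi lowers cyclic AMP, and Gq acts through phospholipase C. Adhesion receptors carry long extracellular domains that bind matrix or the surface of other cells. Many Gpr genes are orphans without a settled ligand, and several of the proteins with that name sit in the Golgi or in lysosomes. In the adult brain, astrocytes and the astrocyte-like stem cells of this niche are known for receptors of endothelin, sphingosine 1-phosphate and neurotensin.

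The states were checked against marker lists, summed over each array. The astroglial list, of which all 10 genes were measured and which includes Ntsr2, summed to 127031 to 130975 in quiescent, 121233 to 134279 in irradiated and 31254 to 45309 in activated cells. The list for activated cells, of which 5 genes were measured, summed to 717 to 2711, 262 to 970 and 21886 to 22992 in the same order. Lists of other cell types also differed. The 9 oligodendrocyte markers summed to 20870 to 30515 in quiescent, 17141 to 30817 in irradiated and 1774 to 5315 in activated cells. The sums of the 7 pericyte markers were 1963 to 5595, 2204 to 8139 and 190 to 818. Pdgfrb had the highest means of this list in quiescent and irradiated cells, with group means of 1749.33, 3645.0 and 94.0. Acta2 and Notch3 also had their lowest means in activated cells. Rgs5 had group means of 1014.33, 80.25 and 251.0, and Kcnj8, Abcc9 and Higd1b had irradiated means of 5.0 to 6.75. The 6 choroid plexus markers summed to 10827 to 17873, 10023 to 20253 and 30 to 31. Nearly all of this was Ttr, with group means of 15075.67, 14804.5 and 6.0. Aqp1 and Folr1 were near the lower limit on every array, and Kl, Clic6 and Kcnj13 had group means of 4.67 to 63.25. The 7 ependymal markers summed to 666 to 2443, 756 to 2618 and 45 to 160. Most of this was Rarres2, with group means of 1704.33, 1604.0 and 52.0. Enkur, Fam183b and Tmem212 were near the limit on every array, and Foxj1, Ccdc153 and Dynlrb2 had group means of 5.0 to 18.0. The neuroblast markers went the other way, at 566 to 1923, 264 to 2170 and 20184 to 28370. So the astroglial, oligodendrocyte, pericyte, choroid plexus and ependymal sums were lower on every activated array than on any other, as were the called receptors. The 8 neuron markers summed to 764 to 13613, 1849 to 2588 and 447 to 995. These sums were lower in activated than in irradiated cells and overlapped between activated and quiescent cells. The lower choroid plexus and ependymal sums rested mainly on Ttr and Rarres2, not on the lists as a whole. Nor did the pericyte genes all fall, since the mean of Rgs5 was higher in activated than in irradiated cells. The part of cells of any of these types in the receptor results was not tested.

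For 5 of the 7 receptor genes that were called in a comparison, the sequence just before the annotated start is shown, because these genes are the ones the results turn on and fell together. S1pr1 was not among the matched genes, and the Ednrb window lies inside its own gene. The sequences are from RefSeq on GRCm38.p6, written 5′ to 3′ on the strand of the gene, with CCAAT and GGGCGG in capitals, read on both strands, so that ATTGG and CCGCCC are matches too. Gpr146 is at chr5:139377447-139377696 on the plus strand, before the first of its 3 starts. Gpr37 is at chr6:25689981-25690230 on the minus strand, Gpr37l1 at chr1:135167682-135167931 on the minus strand, Gpr155 at chr2:73386522-73386730 on the minus strand and Ntsr2 at chr12:16653220-16653442 on the plus strand. All 5 stretches lie upstream of the gene.
Gpr146: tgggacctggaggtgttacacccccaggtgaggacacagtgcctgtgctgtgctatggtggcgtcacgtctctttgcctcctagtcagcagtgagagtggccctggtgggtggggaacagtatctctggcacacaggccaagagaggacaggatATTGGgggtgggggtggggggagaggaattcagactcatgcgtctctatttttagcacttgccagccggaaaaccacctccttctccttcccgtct
Gpr37: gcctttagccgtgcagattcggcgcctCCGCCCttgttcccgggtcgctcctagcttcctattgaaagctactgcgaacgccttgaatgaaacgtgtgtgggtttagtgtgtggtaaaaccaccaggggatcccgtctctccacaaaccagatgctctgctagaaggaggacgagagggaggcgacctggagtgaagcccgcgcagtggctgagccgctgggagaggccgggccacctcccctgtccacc
Gpr37l1: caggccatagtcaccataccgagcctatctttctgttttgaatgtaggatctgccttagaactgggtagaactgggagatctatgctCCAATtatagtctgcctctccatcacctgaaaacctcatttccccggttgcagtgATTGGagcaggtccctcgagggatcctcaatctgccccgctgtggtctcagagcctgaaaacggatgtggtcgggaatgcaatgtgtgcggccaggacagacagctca
Gpr155: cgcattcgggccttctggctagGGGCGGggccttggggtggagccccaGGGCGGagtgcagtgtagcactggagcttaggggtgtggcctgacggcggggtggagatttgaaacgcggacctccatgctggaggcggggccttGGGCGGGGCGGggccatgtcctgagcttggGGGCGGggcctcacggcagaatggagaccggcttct
Ntsr2: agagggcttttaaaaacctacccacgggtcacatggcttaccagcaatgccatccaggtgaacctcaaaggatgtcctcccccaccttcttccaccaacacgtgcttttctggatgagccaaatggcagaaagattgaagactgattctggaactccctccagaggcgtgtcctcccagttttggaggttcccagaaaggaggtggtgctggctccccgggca
The upstream letters of these genes differed. In the stretches shown, Gpr155 held 5 matches to GGGCGG, of which a pair overlaps, and 14 CpG dinucleotides, and Gpr37 held 1 match and 16 CpG. Gpr37l1 held 2 CCAAT matches and Gpr146 held 1, with 7 and 5 CpG. Ntsr2 held neither motif and 4 CpG. Over the 71 members with a RefSeq window, which have 92 starts, 42.4% of windows held GGGCGG, against 32.7% of all 32851 windows of the same 250 bases, and 35.9% held CCAAT, against 33.8%. TATAAA was in 8.7% of member windows and 12.4% of all windows. No match or lack of one says whether a factor binds there.

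Activated cells had lower readings of 6 receptor genes than quiescent cells and higher readings of none. The 6 were Gpr146, Gpr155, Gpr37, Gpr37l1, Ntsr2 and S1pr1, with differences of -2.82 to -4.83 on the scale of log2(intensity + 16), on which all fold changes here are given and which understates the change of dim genes. Calls required a limma p under 0.05 after Benjamini-Hochberg adjustment over all 18193 genes. In this comparison 6.38% of the members were called lower, against 3.12% of all genes, while 2.89% of all genes were called higher. In either direction the members' share of 6.38% is near the 6.01% of all genes. At an unadjusted p under 0.05, 12 members were lower and 0 higher, against 8.03% and 8.14% of all genes. On the arrays as read, 17 members (18.1%) had every activated value below every quiescent value, against 9.47% of all genes, and 1 member, Gpr161, had every value above, against 9.86%. Some of these separations lie between dim readings, as for S1pr2 (activated 5, lowest quiescent 6) and Gpr161 (quiescent 7, lowest activated 10). The shares of all genes were counted in the same way. The median difference over the 94 members, many of them at the lower limit, was -0.02, beside 0 over all genes, and it was -1.473 over the 36 members left without the dimmest 50% of genes.

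Activated cells also had lower readings of 7 members than irradiated quiescent cells, the same 6 and Ednrb, and higher readings of 0. That is 7.45% of members, against 3.68% of all genes called lower, 3.40% called higher and 7.08% in either direction. In 13 members (13.8%) every activated value lay below every irradiated value, against 7.99% of all genes. This comparison shares the activated arrays with the one before it, so the calls are not independent of each other. None of the 22 adhesion receptors and none of the 4 Gprc5 receptors was called in either comparison.

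Irradiated and quiescent cells were not told apart by any receptor. With limma, 0 of 94 members were called and 0 had an unadjusted p under 0.05, against 0.0110% and 3.96% of all genes. No member had non-overlapping arrays, against 2.97% of all genes. Among the members called elsewhere the differences of irradiated minus quiescent were -0.53 to 0.67, with standard errors of 0.31 to 0.69.

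The label of receptors of quiescent cells holds for few members. In 34 of 94 members (36.2%) every array read an intensity of 10 or less, taken here as the lower limit, against 31.7% of all genes. Another 23 members were above 10 on every array and 37 on some. Between 36 and 40 members were above 10 on each quiescent or irradiated array, and 29 to 33 on each activated array. Above 1000 there were 9 to 12 members on each quiescent or irradiated array and 4 or 5 on each activated array. The counts of quiescent and activated arrays did not overlap at either level. Over all probe sets, the share at 10 or less was 56.7% to 58.5% on quiescent and 56.6% to 58.9% on activated arrays. No count of all genes above 1000 is given here for comparison.

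**Figure D1:**
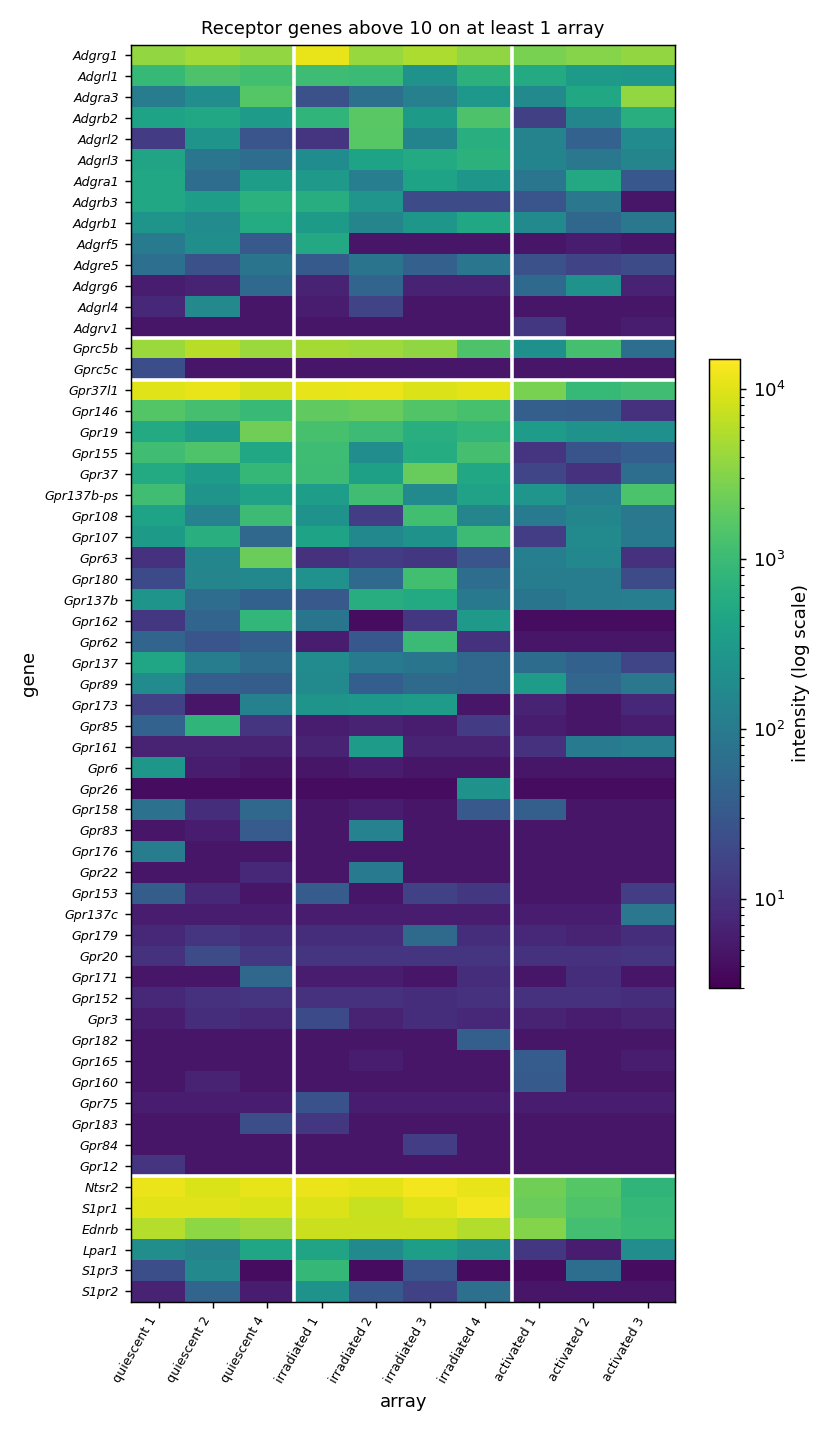
Intensities of the 60 members that exceeded 10 on at least 1 array, with members in rows by family, the 10 arrays in columns by group, and colour for intensity on a log scale. The few bright rows of the quiescent and irradiated columns, such as Ntsr2, Gpr37l1 and S1pr1, are dimmer in the activated columns, while most rows are dim or vary within a group.

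Among adhesion receptors, Adgrg1, which binds collagen and other matrix proteins and acts in cortical and glial development, had clear signal in all 3 groups. It read 3735, 4618 and 3815 in quiescent cells, 11196, 4011, 5333 and 3656 in irradiated cells, and 2704, 3241 and 3713 in activated cells. The quiescent and activated arrays nearly touched, and 1 irradiated array stood high. Activated minus quiescent was -0.34 ± 0.40 (SE, adjusted p = 0.853). The other probe set of Adgrg1 read 8462 on the same irradiated array, where the other 3 irradiated arrays read 2712 to 6389.

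The latrophilins Adgrl1, Adgrl2 and Adgrl3 bind teneurins and FLRT proteins on neighbouring cells. Adgrl1 read 911, 1395 and 1144 in quiescent, 1068, 1003, 233 and 717 in irradiated and 543, 313 and 281 in activated cells. All activated values were below all quiescent ones, but the difference of -1.60 ± 0.57 had an adjusted p of 0.203. Without irradiated replicate 3, which adds only to the shared spread here, it was called (adjusted p = 0.0319). The other probe set of Adgrl1 read 118, 99 and 162 in quiescent and 223, 76 and 99 in activated cells, a difference of -0.04 ± 0.52, so the probe sets of this gene disagreed. Adgrl2 read 13, 248 and 28 in quiescent, 11, 1658, 142 and 649 in irradiated, and 137, 43 and 182 in activated cells, with wide overlap of the groups. Adgrl3 read 441, 84 and 64, then 188, 418, 544 and 708, then 140, 90 and 146 in the same order, and its irradiated values lay above its activated ones. Another probe set of Adgrl3 differed: it read 770, 373 and 164, then 251, 155, 82 and 277, then 96, 10 and 16, with irradiated and activated arrays overlapping and activated minus quiescent at -3.07 ± 0.76 (adjusted p = 0.0686). Another set of Adgrl2 read 6, 24, 4 and 21 in irradiated and 155, 40 and 284 in activated cells, the opposite order of means to the set used.

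The Adgrb receptors are known for engulfment and synapse adhesion. Adgrb1 read 250, 183 and 562 in quiescent, 307, 143, 268 and 500 in irradiated and 178, 54 and 92 in activated cells. Adgrb3 read 487, 349 and 691, then 602, 255, 21 and 21, then 28, 88 and 5. Activated values of both genes lay below the quiescent ones, with differences of -1.46 ± 0.59 (adjusted p = 0.269) and -3.47 ± 1.19 (adjusted p = 0.188). Adgrb2 read 413, 480 and 329 in quiescent, 788, 1712, 310 and 1399 in irradiated and 15, 148 and 642 in activated cells. The 3 activated arrays of Adgrb2 span a wide range, and activated minus irradiated was -2.58 ± 1.03 (adjusted p = 0.244).

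Adgra3, an adhesion receptor with a role in planar cell polarity, had its highest group mean in activated cells. It read 109, 192 and 1580 in quiescent, 25, 70, 121 and 279 in irradiated and 169, 487 and 3753 in activated cells. Activated minus quiescent was 1.03 ± 1.40 (adjusted p = 0.916), with overlapping groups, and its other probe sets stayed at 42 or below. Of the remaining adhesion receptors, 8 read 10 or less on every array, among them Adgre1, the macrophage marker F4/80.

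Gprc5b, a class C orphan receptor known from lipid rafts, read 4227, 6072 and 4203 in quiescent, 4724, 4264, 3708 and 1367 in irradiated and 214, 1230 and 66 in activated cells. The activated arrays lay below all others, and activated minus quiescent was -4.06 ± 0.95 with an adjusted p of 0.0521. Under 7 of the 20 alternatives this gene was called, among them the fit without activated replicate 2 (adjusted p = 0.00826). Its other probe set read 2645, 1946 and 1640 in quiescent, 1443, 1443, 1294 and 1703 in irradiated, and 444, 355 and 240 in activated cells. That set was steadier between replicates and passed in a fit of every probe set, at -2.54 ± 0.25 (adjusted p = 0.00118). Of the other 3 members of this family, Gprc5a and Gprc5d were at the limit on every array and Gprc5c read 23 on 1 quiescent array and 5 elsewhere.

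Gpr37l1 and Gpr37 are relatives for which prosaposin has been proposed as a ligand, and they are known from astrocytes and oligodendrocytes. Gpr37l1 read 9945, 11245 and 8751 in quiescent cells, 11056, 11721, 9685 and 10713 in irradiated cells, and 2701, 893 and 1106 in activated cells. Every activated value was well below every other value, and the means were 9980.3 ± 1247 (SD, n = 3), 10794 ± 849 (n = 4) and 1567 ± 988 (n = 3). The fall was 7.08-fold against quiescent cells (-2.82 ± 0.37, adjusted p = 0.00422), and 7.68-fold against irradiated cells (-2.94 ± 0.34, adjusted p = 0.00229). With only the quiescent and activated groups in the fit, the first adjusted p was 0.064.

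Gpr37 varied more between arrays of a group. It read 556, 317 and 866 in quiescent, 1039, 374, 2047 and 495 in irradiated and 18, 10 and 65 in activated cells. All activated values were below all others, with a fall of 13.3-fold against quiescent cells (-3.73 ± 0.73, adjusted p = 0.0260) and 19.5-fold against irradiated cells (-4.29 ± 0.69, adjusted p = 0.00969). The first call was lost when quiescent replicate 1 or 4 or activated replicate 1 or 2 was left out, with adjusted p-values of 0.0819 to 0.0940. A pseudocount of 64 (adjusted p = 0.0503) and a fit of only those 2 groups (0.0613) ended it too. Irradiated replicate 3, where Gpr37 read 2047, had an oligodendrocyte marker sum of 30817, and quiescent replicate 2, where Gpr37 read 317, had nearly the same sum of 30515. Mobp, Ermn and Opalin were highest on the former array, and Mbp, Mag, Cldn11, Cnp and Ugt8a on the latter. The part of these cells in the Gpr37 values was not tested.

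Gpr146, an orphan receptor known for cholesterol control in the liver, had the largest fall among the called members. Its brightest probe set read 1512, 1199 and 928 in quiescent, 1871, 2086, 1506 and 1244 in irradiated and 39, 37 and 10 in activated cells. Activated cells read 39 or less on every array, with a fall of 28.5-fold against quiescent (-4.83 ± 0.34, adjusted p = 2.49e-04) and 39.2-fold against irradiated cells (-5.29 ± 0.32, adjusted p = 9.28e-05). Another probe set read 1371, 1417 and 877 in quiescent and 7, 5 and 35 in activated cells, and one more read 335, 201 and 393 against 12 on all 3 activated arrays. Both were called in the fit of every probe set, at -5.38 ± 0.53 and -3.49 ± 0.37, while the last set read 5 on every array.

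Gpr155 is a lysosomal membrane protein that senses cholesterol. It read 1089, 1419 and 479 in quiescent, 1048, 192, 584 and 1226 in irradiated and 11, 27 and 38 in activated cells. The activated values were far below the others, with a fall of 23.2-fold against quiescent (-4.54 ± 0.73, adjusted p = 0.0112) and 16.04-fold against irradiated cells (-4.00 ± 0.68, adjusted p = 0.0125).

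**Figure D2:**
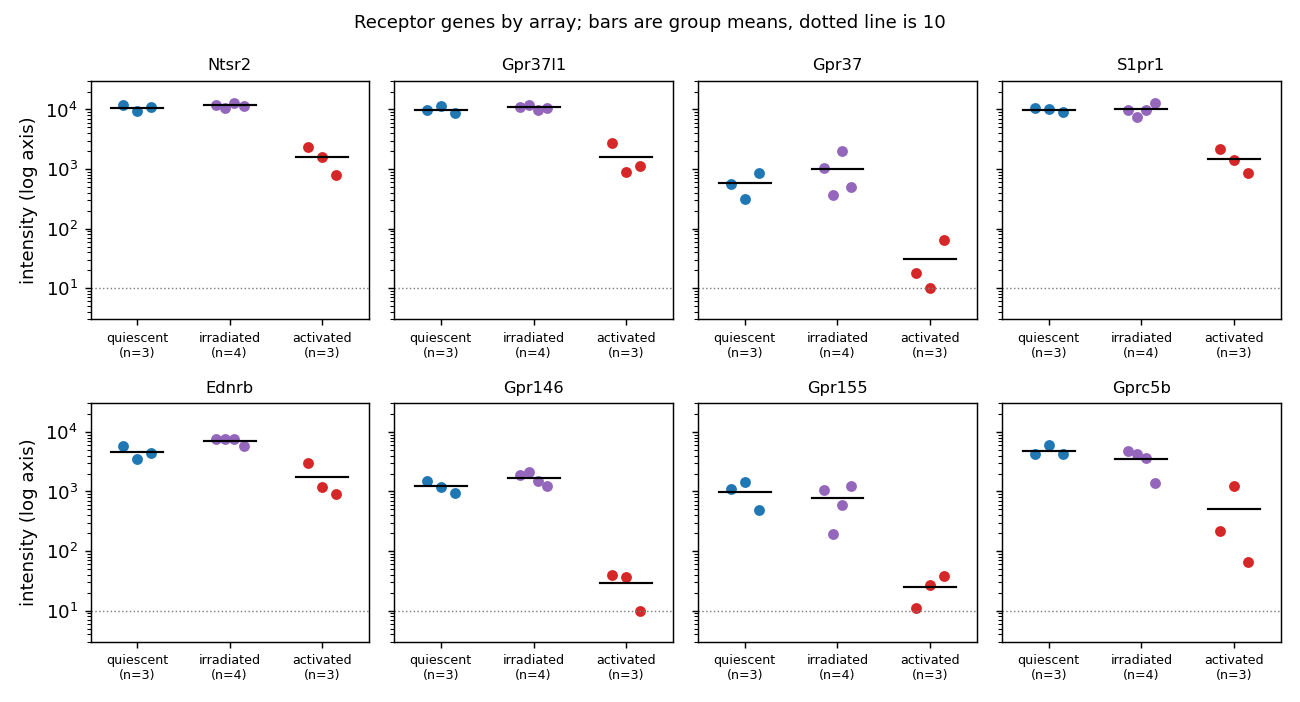
Intensity on a log axis for 8 members, with 1 point for each array of the quiescent, irradiated and activated groups, bars at group means and a dotted line at an intensity of 10. Activated points lie below all quiescent and irradiated points for each of the 8, and Ednrb, whose quiescent and activated readings come closest (3520 and 3060), was not called between those groups, nor was Gprc5b.

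Other Gpr genes with signal were not called. Gpr19, an orphan receptor, read 552, 318 and 2352 in quiescent, 1243, 1031, 653 and 803 in irradiated and 325, 227 and 218 in activated cells. The irradiated values lay above the activated ones, at -1.78 ± 0.62 for activated minus irradiated (adjusted p = 0.179), and this was called without quiescent replicate 4 (adjusted p = 0.0187). Gpr107 and Gpr108, which sit in the Golgi, varied over more than an order of magnitude within a group. Gpr107 read 309, 620 and 51 in quiescent, 422, 160, 237 and 1046 in irradiated and 14, 169 and 93 in activated cells. Gpr108 read 424, 131 and 1046, then 229, 14, 1147 and 145, then 101, 149 and 92. Gpr137b-ps had no consistent order, with 257, 119 and 1364 in activated and 1096, 249 and 404 in quiescent cells. Gpr137, Gpr137b, Gpr180 and Gpr89 were above 10 on all arrays and had quiescent and activated groups that overlapped or touched.

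Some Gpr genes were read on few arrays. Of all members, 16 were above the limit on a single array, among them Gpr6 (272 on quiescent replicate 1) and Gpr26 (240 on irradiated replicate 4). The neuron marker sum of quiescent replicate 1 was 13613, against 447 to 3056 on the other arrays; Gpr6 is known from striatal neurons, and no test was made of this. Gpr161, a receptor of the primary cilium that restrains Hedgehog signalling, read 7, 7 and 7 in quiescent, 10, 105 and 114 in activated and 321 on 1 irradiated array with 7 on the other 3. Gpr62, known from oligodendrocytes, read 984 on irradiated replicate 3 and 5 on each activated array. Gpr17, of oligodendrocyte precursors, and Gpr34, of microglia, read 5 or 6 on every array. The 9 microglial markers summed to 53 to 4485, with Aif1, C1qa, Itgam and Tmem119 near the lower limit on every array, and the 5 precursor markers, which include Gpr17, to 28 to 685.

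Among receptors with known ligands, Ntsr2, a neurotensin receptor found in astrocytes, read 11834, 9411 and 10840 in quiescent, 11796, 10719, 13032 and 11218 in irradiated and 2367, 1566 and 795 in activated cells. Every activated value was below every other one, and the means were 10695 ± 1218 (n = 3), 11691 ± 996 (n = 4) and 1576 ± 786 (n = 3). The fall was 7.35-fold against quiescent cells (-2.88 ± 0.35, adjusted p = 0.00287) and 8.05-fold against irradiated cells (-3.01 ± 0.32, adjusted p = 0.0015). With only quiescent and activated arrays the adjusted p was 0.0529.

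S1pr1, a Gi-coupled receptor of sphingosine 1-phosphate, read 10396, 10308 and 9122 in quiescent, 9675, 7370, 9922 and 12988 in irradiated and 2152, 1440 and 873 in activated cells. The activated arrays lay below all others, with falls of 7.05-fold against quiescent (-2.82 ± 0.33, adjusted p = 0.00243) and 6.95-fold against irradiated cells (-2.80 ± 0.31, adjusted p = 0.00162). S1pr1 is also known from endothelium. The 10 endothelial markers summed to 795, 1295 and 51 on quiescent replicates 1, 2 and 4, where S1pr1 read 10396, 10308 and 9122. They summed to 88 to 147 in irradiated and 104 to 623 in activated cells. The part of endothelial cells in the S1pr1 values was not tested. The related S1pr2 read 7, 48 and 6 in quiescent, 238, 30, 16 and 70 in irradiated and 5 on all 3 activated arrays, and S1pr3 read over 100 on only 1 quiescent and 1 irradiated array (164 and 885).

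Ednrb, the endothelin B receptor, read 5728, 3520 and 4371 in quiescent, 7541, 7620, 7697 and 5692 in irradiated and 3060, 1172 and 919 in activated cells by its brightest probe set. It fell in activated against irradiated cells (4.71-fold, -2.24 ± 0.40, adjusted p = 0.0157), a call lost without activated replicate 2 (adjusted p = 0.0655) and in a fit of those groups alone (0.0535). Against quiescent cells the difference was -1.57 ± 0.43 (adjusted p = 0.0917), and it passed without activated replicate 1 (adjusted p = 0.00441) and with the mean of its probe sets (-2.04, adjusted p = 0.00191). The irradiated mean of 7137.5 ± 966 (n = 4) exceeded the quiescent mean of 4539.7 ± 1114 (n = 3), with a difference of 0.67 ± 0.40 (adjusted p = 0.970).

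Ednrb shows how the probe set matters. One of its other sets read 5722, 5739 and 5551 in quiescent, 5576, 5785, 6662 and 8025 in irradiated and 1661, 1162 and 1170 in activated cells. The last set read 4596, 2936 and 4951, then 4590, 6066, 5772 and 4250, then 842, 821 and 567. Both were lower in activated than in quiescent cells in the fit of every probe set, by -2.10 ± 0.18 (adjusted p = 5.73e-04) and -2.45 ± 0.25 (adjusted p = 0.00152). Over 34945 probe sets in that fit, which was chosen after the data had been seen, 11 of 154 member probe sets were called between activated and quiescent cells, all lower, from 8 genes, against 5.42% of all probe sets. Between activated and irradiated cells 12 were called, against 6.41%. The 8 genes in both were Ednrb, Gpr146, Gpr155, Gpr37, Gpr37l1, Gprc5b, Ntsr2 and S1pr1.

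Lpar1, a receptor of lysophosphatidic acid, read 205, 143 and 448 in quiescent, 436, 173, 353 and 213 in irradiated and 12, 6 and 196 in activated cells. Activated replicate 3 overlapped the other groups, and the difference from quiescent cells was -2.32 ± 0.89 (adjusted p = 0.242), which passed without that array (adjusted p = 0.0197). The difference from irradiated cells was -2.52 ± 0.83 (adjusted p = 0.15) and was called under 3 of the 20 alternatives. Another probe set read 32, 35 and 22 in quiescent, 27, 180, 121 and 20 in irradiated and 12, 9 and 11 in activated cells. Its activated values lay below the others. The last set read 7, 44 and 8, then 7, 7, 34 and 15, then 8, 7 and 7, with overlap. P2ry1, an ADP receptor, read 5 on every array.

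**Figure D3:**
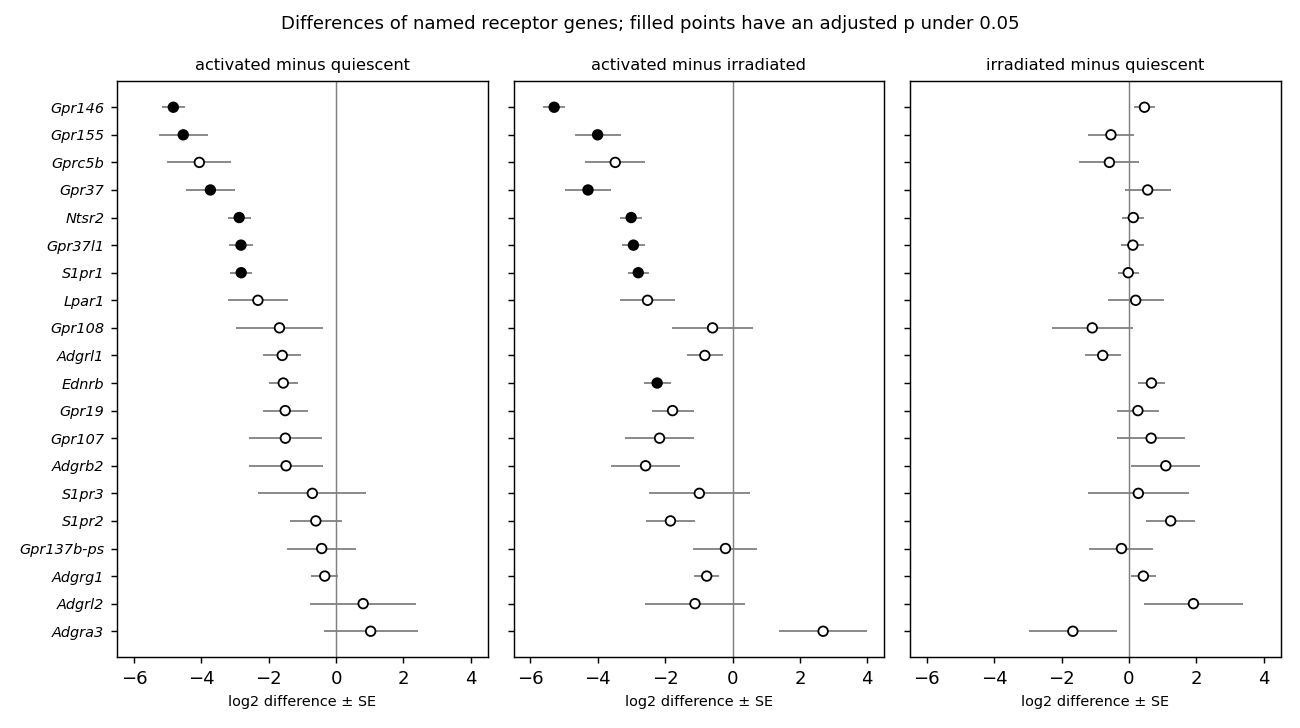
Differences of log2(intensity + 16) with standard errors for 20 named members, in panels for activated minus quiescent, activated minus irradiated and irradiated minus quiescent. Filled points have an adjusted p under 0.05: 6 in the first panel, 7 in the second and 0 in the third, all at negative values.

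The precision of a reading depended on its level. The residual standard deviation of log2 values was 0.41 to 1.2 (median 0.46) for the 7 members whose mean over all arrays exceeded 1000, and 0.71 to 2.02 (median 1.35) for the 24 between 100 and 1000. Over all genes the medians were 0.69 and 1.14. The 63 members up to 100, many of them at the lower limit on every array, had a median of 0.04, beside 0.06 over all genes. A difference of the same size was therefore less likely to pass in a member read between 100 and 1000 than in one above 1000.

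Genes that act with the receptors were taken from 8 lists of 132 measured genes. In activated against quiescent cells 2 were higher and 8 lower (7.58%), and in activated against irradiated cells 2 were higher and 13 lower (11.4%), while 0 were called between irradiated and quiescent cells. Over all genes the shares were 6.01% and 7.08%, so the first is near the background and the second is above it. By direction, 3.12% and 3.68% of all genes were called lower and 2.89% and 3.40% higher. No test of the lists was made, and the genes below are given as descriptions of single genes, not of their lists. Of 13 G protein alpha subunits, Gnao1, a Gi-class subunit abundant in brain, and Gna12 fell, and none rose. Gnao1 averaged 5079 ± 1600 in quiescent and 1025 ± 294 in activated cells (-2.28 ± 0.38, adjusted p = 0.0129), and Gna12 averaged 1475 ± 425 and 363 ± 70.1 (-1.95 ± 0.23, adjusted p = 0.00263). With the mean of its probe sets Gna12 was not called (adjusted p = 0.328). Of 15 beta and gamma subunits, Gng2 rose from 6, 6 and 5 in quiescent cells to 330, 743 and 582 in activated cells (4.64 ± 0.25, adjusted p = 5.7e-05).

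Of 19 RGS proteins, which speed the shutdown of G proteins, Rgs16 rose and Rgs20 fell. Rgs16 read 64, 65 and 430 in quiescent and 4246, 2258 and 1361 in activated cells (4.06 ± 0.71, adjusted p = 0.0161), and the call was lost when quiescent replicate 1 or 2 or activated replicate 1 or 2 was left out (adjusted p up to 0.0573). Rgs20 read 15275, 16746 and 16324 in quiescent and 11339, 9939 and 10007 in activated cells, a small fall of -0.63 ± 0.06 (adjusted p = 0.0013) that was not called without the dimmest 50% of genes (0.339) or with the mean of probe sets (0.116). The 10 receptor kinases and arrestins held no called gene.

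In the lists of ligand supply and of proposed ligands, the genes called between activated and quiescent cells were lower in activated cells. They included genes that make ligands and genes that remove them. Of 20 genes of endothelin, sphingosine 1-phosphate and lysophosphatidate supply, Ece1, which makes endothelin, averaged 2802 ± 1110 in quiescent and 262 ± 205 in activated cells (-3.76 ± 0.80, adjusted p = 0.0364). Leaving out any of quiescent replicates 1, 2 and 4, irradiated replicates 1 to 4 and activated replicate 2 ended this call (adjusted p up to 0.119). Plpp3, which removes lysophosphatidic acid and sphingosine 1-phosphate, averaged 13289 ± 1382 and 3284 ± 1565 (-2.12 ± 0.32, adjusted p = 0.00835). Of 17 purine and neurotensin genes, Entpd2, an ectoenzyme that breaks down ATP, averaged 2331 ± 636 and 101.0 ± 152 (-5.19 ± 0.86, adjusted p = 0.0132). Of 17 proposed ligands of orphan and adhesion receptors, Psap, the prosaposin gene, averaged 10419 ± 2617 and 1482 ± 288 (-2.79 ± 0.24, adjusted p = 6.91e-04). The latrophilin ligand Flrt1 averaged 2923 ± 1915 and 121.0 ± 77.4 (-4.47 ± 0.63, adjusted p = 0.00598). With only quiescent and activated arrays in the fit, Gnao1, Rgs16, Ece1, Plpp3, Entpd2 and Flrt1 were not called (adjusted p of 0.0556 to 0.169).

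Plpp1, which acts on the same lipids as Plpp3, was called between activated and irradiated cells. It read 114, 44 and 349 in quiescent, 827, 2477, 1579 and 1358 in irradiated and 5, 40 and 5 in activated cells. Its irradiated arrays were all above its quiescent ones, at 3.37 ± 0.69, but with an adjusted p of 0.56. The fall in activated against irradiated cells was -5.65 ± 0.69 (adjusted p = 0.00269).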

How the data were processed

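Per the labels' protocols, the small RNA samples were amplified by the NuGEN Ovation Pico kit and hybridised to 1-colour Affymetrix arrays. The deposited table gives the authors' linear intensity of each probe set in whole numbers. Which software and normalization made it is not stated in the sources used. Dim probe sets sit at readings of about 5, not at 0. Intensities were used as deposited. Of 45037 probe sets, 34945 carried 1 symbol, 932 several and 9160 none, and those with 1 symbol were used. The brightest probe set by mean of log2(intensity + 16) stood for each of 18193 genes. Groups came from the sample labels, and 2 arrays without values were left out. The 75th percentile of intensity was 83 to 104 per array, and 56.6% to 59.2% of probe sets read 10 or less. The number of arrays limits the precision.

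A model with 3 group means over 10 arrays (7 residual degrees of freedom) was fitted with limma 3.58.1 in R 4.3.3, with eBayes and Benjamini-Hochberg adjustment over all genes; the script was tested on simulated data. Members and lists were chosen with earlier results of these data known. Values were named for members that were called, for the receptors listed one by one, and for the 10 other members with the highest mean; Adgrb1, Adgrb3, Adgrl3, Gpr161, Gpr62, other dim members and Plpp1 were named after their values were seen. Alternatives were quantile normalization, scaling to a common 75th percentile, other pseudocounts, a filter on dim genes, the mean of probe sets, another moderation, array weights, a fit of 2 groups, a replicate block and leaving out each array. A fit of every probe set was added after seeing the data. Scan batches were not used. Same-numbered samples did not deviate together (8 pairs, correlations of -0.029 to 0.021), so numbers were not taken to pair samples.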

Additional observations from a re-analysis of the deposited data

Results flagged for a closer look

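The Ednrb reading of irradiated replicate 4 stood apart from the other 3 irradiated arrays. It was 5692, where the others read 7541 to 7697, and its gap to the nearest was 0.932 of the group's range on the log2 scale, more than the 95% limit of Dixon's outlier test for 4 samples. The other probe sets of Ednrb read 8025 and 4250 on that array, the highest and the lowest of the irradiated values of each set. Among 29 groups tested this was the 1 flagged, and chance flags about 1 in 20.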

How the results depend on the processing

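The alternatives were followed gene by gene for 31 of the genes named in the text, as 93 gene and comparison pairs. The genes named after their values were seen, such as Plpp1, Adgrb1, Adgrb3, Adgrl3, Gpr161 and Gpr62, were left out. Of the 93 pairs, 65 kept their call under each of up to 20 alternatives (P2ry1 had no value without the dimmest genes), and 45 of these never showed both signs. The other 20, none of them called, did. No called value changed sign. Gpr146 was called lower in activated than in quiescent cells in all of them (highest adjusted p = 0.0139). The count of 6 members called in activated minus quiescent became 2 (Gpr146, Gpr37) with the replicate block, 4 with 2 groups, 7 with quantile normalization and 8 with the mean of probe sets, and 5 to 7 with 1 array left out. In activated minus irradiated the 7 calls became 5 with the replicate block, 9 with the mean of probe sets or without the dimmest 50% of genes, and 7 to 8 with 1 array left out. The block cost Ntsr2 (adjusted p = 0.0524), S1pr1 (0.0501), Gpr37l1 (0.0665) and Gpr155 (0.135) their calls against quiescent cells. Against irradiated cells it cost Ednrb (0.0583) and Gpr155 (0.115) theirs. Numbers were not taken to pair these samples, but correlations over all genes, many of them dim, cannot show that pairing is absent. Whether these losses reflect a weaker effect was not tested. Fewer degrees of freedom remain in that fit. The median difference of members in activated minus quiescent was -0.081 with a pseudocount of 1, -1.473 without the dimmest 50% of genes, where 36 members were left, -0.055 with the block and -0.046 to 0 with 1 array left out. In irradiated minus quiescent it was -0.014 with the 75th percentile scaling and 0.137 without the dimmest genes. In activated minus irradiated it was -0.023 with the 75th percentile scaling and with the mean of probe sets, -0.097 and -0.012 with pseudocounts of 1 and 64, -1.400 without the dimmest genes, -0.048 with the block and -0.044 to 0 with 1 array left out. Cause was not tested for changes other than those of fewer genes or samples. Dim probe sets limit what can be read for 34 members.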
